A study of Saccharomyces cerevisiae with 6 samples.

Results

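The small-subunit processome is the large particle that forms on nascent ribosomal RNA in the nucleolus and, with the late factors that follow it, turns the precursor into the 40S ribosomal subunit. The set described here holds 53 genes of budding yeast, Saccharomyces cerevisiae, chosen by name: the UTP-A, UTP-B and UTP-C subcomplexes, the U3 small nucleolar ribonucleoprotein, the Mpp10 complex, the Bms1-Rcl1 pair, RNA helicases, other factors of the early (90S) particle and late 40S factors. All 53 of the 53 names were found among the 5449 genes on the arrays, each by 1 probe set, and all 53 passed the filter on low values that left 5350 genes. DBP4 was found by its alias, HCA4 in the reference gene table.

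Both groups were transformants of strain BY4741, a haploid of mating type a, and differed in the galactose-inducible protein that they made. PI3K cells made p110α-CAAX, which is the PIK3CA product, the catalytic part of phosphoinositide 3-kinase in mammals, with a membrane-targeting motif at its end. KD cells made p110α-CAAX K802R, its kinase-dead form, so that both groups carried a foreign protein and received galactose. Cultures were grown overnight in raffinose medium, diluted to an optical density of 0.3, given galactose to 2% and kept for 4 h at 30 °C, with 3 biological replicates in each group and 1 Affymetrix array for each. Galactose promoters are strong, and the labels do not say from how many transformant clones the cultures came. In whole-culture RNA, a smaller share of cells that express a gene and less of its RNA in each cell cannot be told apart.

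Assembly starts when UTP-A and then UTP-B bind the leading spacer of the precursor RNA. U3 small nucleolar RNA then pairs with the precursor and holds it in an open form, and helicases and GTPases later drive U3 off so that the RNA can be cut and folded. In growing yeast the genes for these factors are a large part of the ribosome biogenesis regulon, which is known to follow nutrient and stress signals through TORC1, the kinase Sch9, the activator Sfp1 and the repressors Dot6 and Tod6.

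The arrays were close to each other and parted in a second way. Deposited log2 values ran from 2.49 to 14.70, and Pearson correlations between arrays ranged from 0.965 to 0.995 over the 5350 genes. Once group means were removed, 70.4% of what variance was left lay on one principal component, which set PI3K 1, PI3K 3 and KD 3 (side A) against PI3K 2, KD 1 and KD 2 (side B). The labels name no batch, so differences are also given within each side, where 1 of the groups is a single array. The a-cell markers STE2, MFA1, MFA2, BAR1 and STE6 had mean levels of at least 10.50 and at most 12.57, and the alpha-cell markers of 4.80 to 8.39, as log2 values. Among alpha-cell markers STE3, the receptor for a-factor, had 7.85, 7.56 and 8.09 in PI3K against 6.80, 6.88 and 7.26 in KD, a log2 fold change of 0.85 (limma SE 0.18 and adjusted p = 0.145) that exceeded that of any of the 53 genes and did not pass.

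Most of the 53 genes had slightly lower values with the active kinase, none by enough to pass the test. In PI3K 47 genes were lower than in KD and 6 were higher (RCL1, RRP7, NOP1, BUD23, LCP5 and, by under 0.01, UTP6), where 50.3% of all tested genes were lower. The median log2 fold change of PI3K over KD was -0.34, or 21.0% less RNA, against -0.00 over all genes tested, with a middle range of -0.44 to -0.16. No gene differed 2-fold, and 16 of the 53 (30.2%) were lower by at least 0.4 on the log2 scale, a size reached by 3.81% of all genes.

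Limma, a moderated linear model fitted here over all 5350 genes, called 0 of the 53 at an adjusted p under 0.05. Of all genes it called 0.243% in either direction, 13 in number, and 0.0187% lower. At an unadjusted limma p under 0.05, 23 of the 53 were lower and 0 higher, or 43.4% of the set, against 6.58% of all genes lower and 7.94% higher. The count of 23 was 12 without PI3K 1 and 13 without KD 2. Counts over all genes also fell in these fits. Under that unadjusted p, in either direction, 439 genes were left without PI3K 1 and 476 without KD 2, against 777 with every array. In 24 of the 53 genes (45.3%) all PI3K arrays lay under all KD arrays, against 10.5% of all genes, and in 0 genes did they lie above, against 10.2% of all genes. The gap between the lowest KD and the highest PI3K value in those 24 genes ran from 0.03 to 0.44 on the log2 scale, and their adjusted p-values in limma from 0.125 to 0.591.

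**Figure D1:**
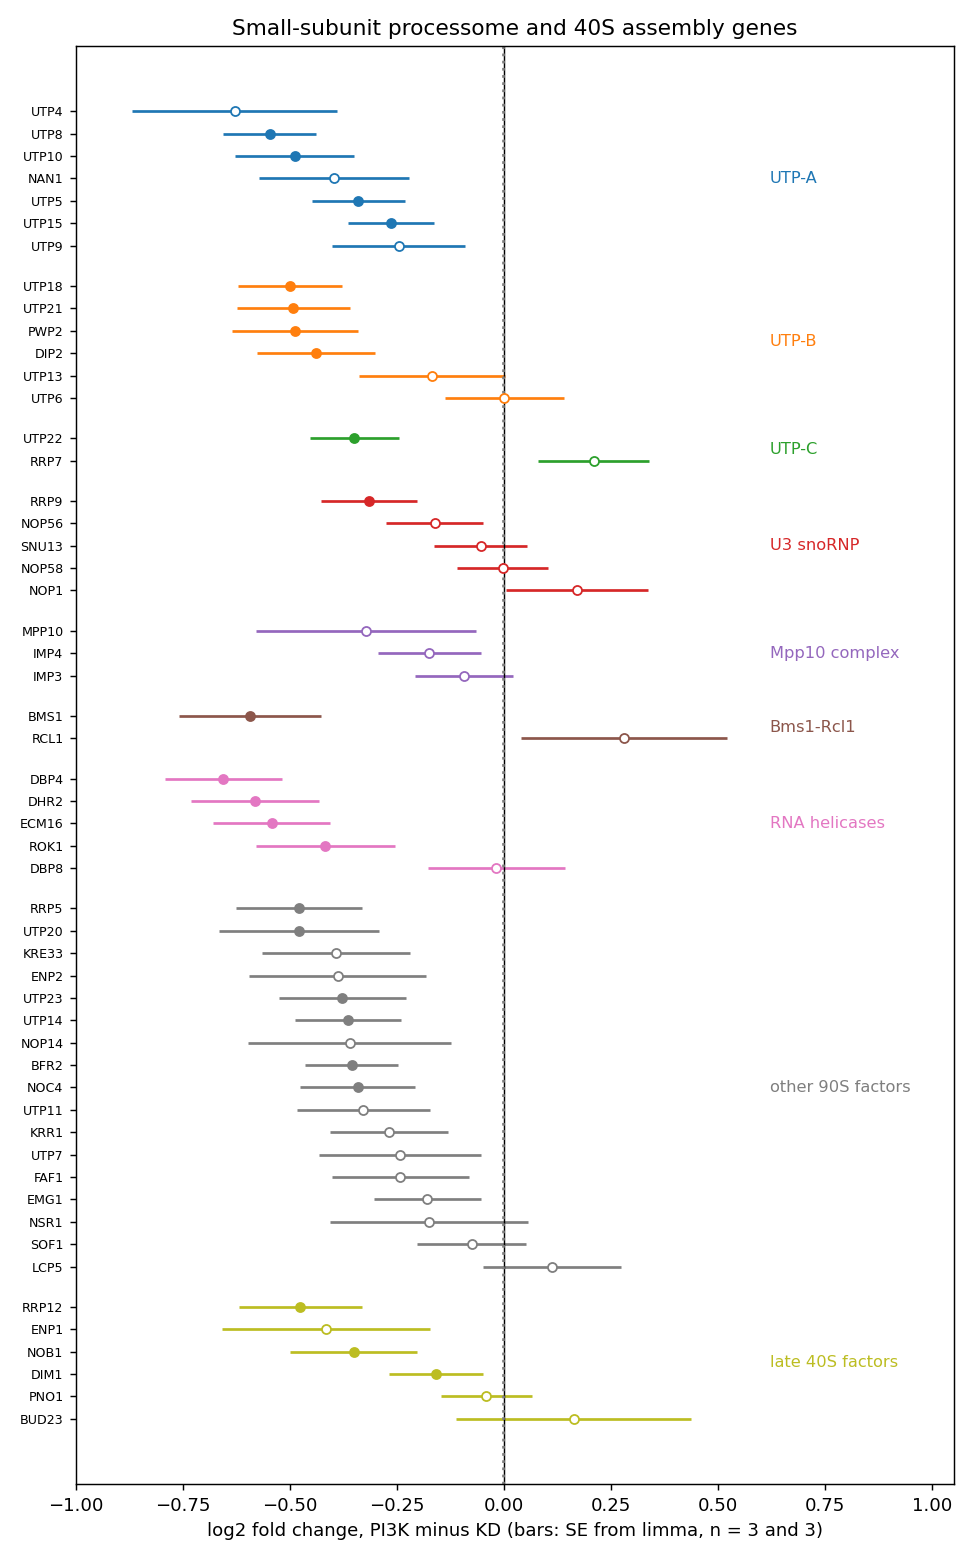
Log2 fold change of PI3K minus KD (horizontal axis) for each of the 53 genes, grouped and coloured by subcomplex. Bars are standard errors from limma with 3 arrays in each group, filled points are the 24 genes whose PI3K arrays all lay under their KD arrays, and the dotted line near 0 is the median of all genes tested. Points lie from -0.66 for DBP4 to 0.28 for RCL1, and 47 of the 53 lie left of 0.

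The 6 arrays were in the order of their groups for the set as a whole. After each gene was centred on its mean over the 6 arrays, the median over the 53 genes was -0.22, -0.16 and -0.09 on PI3K 1, 2 and 3, against 0.09, 0.18 and 0.12 on KD 1, 2 and 3. Every PI3K array thus lay under every KD array. Over all genes tested the same medians were -0.01, 0.01 and -0.02 on the PI3K arrays and 0.04, 0.02 and -0.05 on the KD arrays. Within side A the median log2 fold change of the 53 genes was -0.27 with 45 genes lower, and within side B it was -0.31 with 46 lower. Both sides put 39 of the 53 genes (73.6%) lower in PI3K, against 28.6% of all genes.

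**Figure D2:**
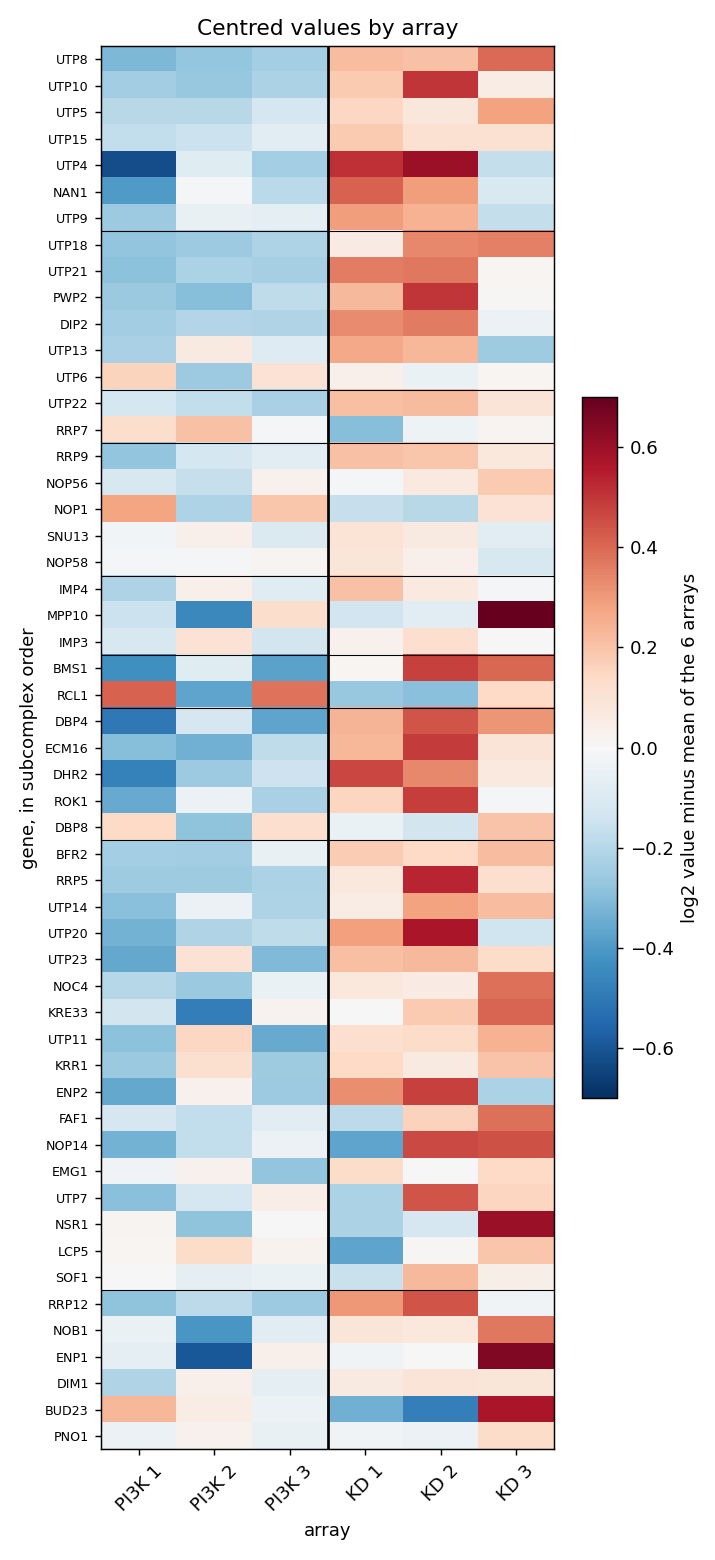
Log2 value of each of the 53 genes on each array, minus that gene's mean over the 6 arrays, with PI3K arrays on the left and KD arrays on the right of the heavy line and thin lines between subcomplexes. Blue is below and red above the gene's own mean. PI3K columns are mostly blue and KD columns mostly red, with 15, 10 and 13 of the 53 genes below their own mean on KD 1, 2 and 3. KD 3 is blue for UTP4 and ENP2 and dark red for MPP10, ENP1 and NSR1.

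UTP-A is the subcomplex that binds the transcript first and is also tied to transcription of ribosomal DNA. All 7 of its genes were lower in PI3K, at a median of -0.40 on the log2 scale, and in 4 the groups did not overlap. Beside this count and those of the subcomplexes below stand the shares over all genes tested. All PI3K arrays lay under all KD arrays in 10.5% of genes, and in 22.6% of those of 2000 bases or more. UTP8 had the smallest p of the 53 genes, with log2 values of 9.37, 9.41 and 9.44 in PI3K and 9.90, 9.88 and 10.08 in KD. The PI3K arrays lay within 0.1 of each other and all KD arrays lay higher, for a log2 fold change of -0.55, or 31.6% less (limma SE 0.11 and adjusted p = 0.125). UTP10, a long scaffold protein built of helical repeats, had 10.28, 10.26 and 10.31 in PI3K against 10.71, 11.03 and 10.58 in KD. Its groups also lay apart, with a log2 fold change of -0.49 (limma SE 0.14 and adjusted p = 0.209).

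The remaining UTP-A genes divided by how KD 3 behaved. UTP5 (log2 fold change -0.34) and UTP15 (-0.27) kept their groups apart on every array. UTP4, a propeller protein, had 9.79, 10.32 and 10.17 in PI3K and 10.92, 11.01 and 10.24 in KD. KD 3 lay among the PI3K values, so the groups overlapped although the mean difference was -0.63 (limma SE 0.24 and adjusted p = 0.301). NAN1 (-0.40) overlapped through KD 3 in the same manner. UTP9, with the highest log2 fold change of UTP-A at -0.25 (limma SE 0.15 and adjusted p = 0.544), had 11.02, 11.22 and 11.20 in PI3K against 11.56, 11.51 and 11.10 in KD. Again KD 3 was the low KD array, and UTP9 differed by 0.01 within side A and by -0.32 within side B.

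UTP-B follows UTP-A onto the spacer and is built around a core of propeller proteins, PWP2, DIP2, UTP13 and UTP21. Its median was -0.46 over 6 genes, 5 of them lower and 4 with groups apart. UTP18, the subunit that brings in the RNA helicase of the nuclear exosome, had 10.32, 10.34 and 10.38 in PI3K against 10.65, 10.94 and 10.95 in KD. This was a log2 fold change of -0.50 (limma SE 0.12 and adjusted p = 0.171) with no overlap. UTP21 had 9.89, 9.96 and 9.95 in PI3K against 10.53, 10.55 and 10.19 in KD, again without overlap (log2 fold change -0.49, limma SE 0.13 and adjusted p = 0.190).

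Core partners of UTP21 were alike in size with 1 exception. PWP2 stood at -0.49 and DIP2 at -0.44, both with groups apart, while UTP13 stood at -0.17 with its KD 3 value of 10.48 under all PI3K values. UTP6, a helical-repeat subunit, had 10.76, 10.34 and 10.71 in PI3K and 10.64, 10.55 and 10.61 in KD. The lone low value was PI3K 2, and the mean difference was 0.00 (limma SE 0.14 and adjusted p = 0.999).

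UTP-C was represented by 2 genes that went different ways. Their products bind each other in the processome and also in a smaller complex with casein kinase 2 and Ifh1, a coactivator of ribosomal protein genes. UTP22 had 9.84, 9.80 and 9.74 in PI3K against 10.18, 10.19 and 10.06 in KD, which did not overlap (log2 fold change -0.35, limma SE 0.10 and adjusted p = 0.217). RRP7 had 10.64, 10.72 and 10.51 in PI3K against 10.22, 10.48 and 10.54 in KD, with overlapping groups and a log2 fold change of 0.21 (limma SE 0.13 and adjusted p = 0.541). RRP7 was the one gene of the 53 that was higher in PI3K within both sides, by 0.04 in side A and 0.37 in side B.

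The U3 particle differed little between PI3K and KD, at a median of -0.05 on the log2 scale over 5 genes. Among these, Rrp9 is the protein bound to U3 alone, whereas Nop1, Nop56, Nop58 and Snu13 form the core of all box C/D particles. RRP9 had 9.66, 9.81 and 9.86 in PI3K and 10.14, 10.13 and 10.00 in KD. It was the gene of this particle whose groups lay apart (log2 fold change -0.32, limma SE 0.11 and adjusted p = 0.270). NOP56, a core scaffold, had 12.16, 12.11 and 12.30 in PI3K against 12.27, 12.34 and 12.46 in KD, which overlapped (log2 fold change -0.16, limma SE 0.11 and adjusted p = 0.597).

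The other core genes showed no common direction. NOP1, the methyltransferase known as fibrillarin in animals, had 13.23, 12.74 and 13.15 in PI3K and 12.79, 12.76 and 13.06 in KD. Its high arrays were those of side A in both groups, and the log2 fold change was 0.17 (limma SE 0.17 and adjusted p = 0.731). NOP58 differed by -0.00 and SNU13, whose product also serves the spliceosome, by -0.05. Log2 values of NOP1, NOP58 and SNU13 lay between 12.74 and 13.47, near the top of the table at 14.70, and whether probe signal there still followed RNA in proportion was not tested.

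MPP10, IMP3 and IMP4, whose products form the complex that helps U3 pair with the precursor, had overlapping groups. IMP4 had 10.55, 10.81 and 10.68 in PI3K against 10.97, 10.84 and 10.76 in KD, for a log2 fold change of -0.17 (limma SE 0.12 and adjusted p = 0.589). IMP3 stood at -0.09 with 10.77, 10.98 and 10.76 in PI3K and 10.92, 11.00 and 10.88 in KD. The scaffold gene MPP10 had 8.63, 8.33 and 8.90 in PI3K and 8.65, 8.70 and 9.48 in KD, so that KD 3 alone stood above the rest and the log2 fold change of -0.32 had an SE of 0.26.

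BMS1 and RCL1 encode partners that enter the particle together, a GTPase and a protein related to RNA cyclases that takes part in cutting the precursor. BMS1 had 10.28, 10.62 and 10.33 in PI3K and 10.72, 11.19 and 11.11 in KD. The groups did not overlap, and the log2 fold change of -0.59, or 33.8% less, was the third lowest of the set (limma SE 0.17 and adjusted p = 0.208). RCL1 had 10.85, 10.07 and 10.82 in PI3K against 10.18, 10.15 and 10.58 in KD. Its side A arrays were high in both groups, and its log2 fold change of 0.28 (limma SE 0.24 and adjusted p = 0.674) was the highest of the 53, at 0.26 within side A and -0.09 within side B.

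RNA helicases had a median of -0.54 over 5 genes, with all 5 lower and 4 with groups apart. That was the lowest median of any subcomplex over the 6 arrays, but not within either side: other early factors (-0.46) lay under the helicases (-0.33) in side A, and UTP-B (-0.50) under them (-0.45) in side B. DBP4, needed to free the U14 small nucleolar RNA from the precursor, had 9.33, 9.71 and 9.46 in PI3K against 10.07, 10.27 and 10.14 in KD. Its log2 fold change of -0.66, or 36.5% less, was the lowest of the 53 (limma SE 0.14 and adjusted p = 0.136). ECM16, the helicase also called Dhr1 that unwinds U3 from the precursor, had 9.90, 9.86 and 10.02 in PI3K against 10.43, 10.69 and 10.29 in KD. The groups lay apart here too (log2 fold change -0.54, limma SE 0.14 and adjusted p = 0.176).

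DHR2 (-0.58) and ROK1 (-0.42), the helicase that frees the snR30 RNA, likewise had no overlap, by 0.22 and 0.03 on the log2 scale. DBP8 was the exception among helicases. It had 10.20, 9.78 and 10.18 in PI3K and 10.01, 9.93 and 10.26 in KD, with side A high in both groups and a log2 fold change of -0.02 (limma SE 0.16 and adjusted p = 0.979).

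**Figure D3:**
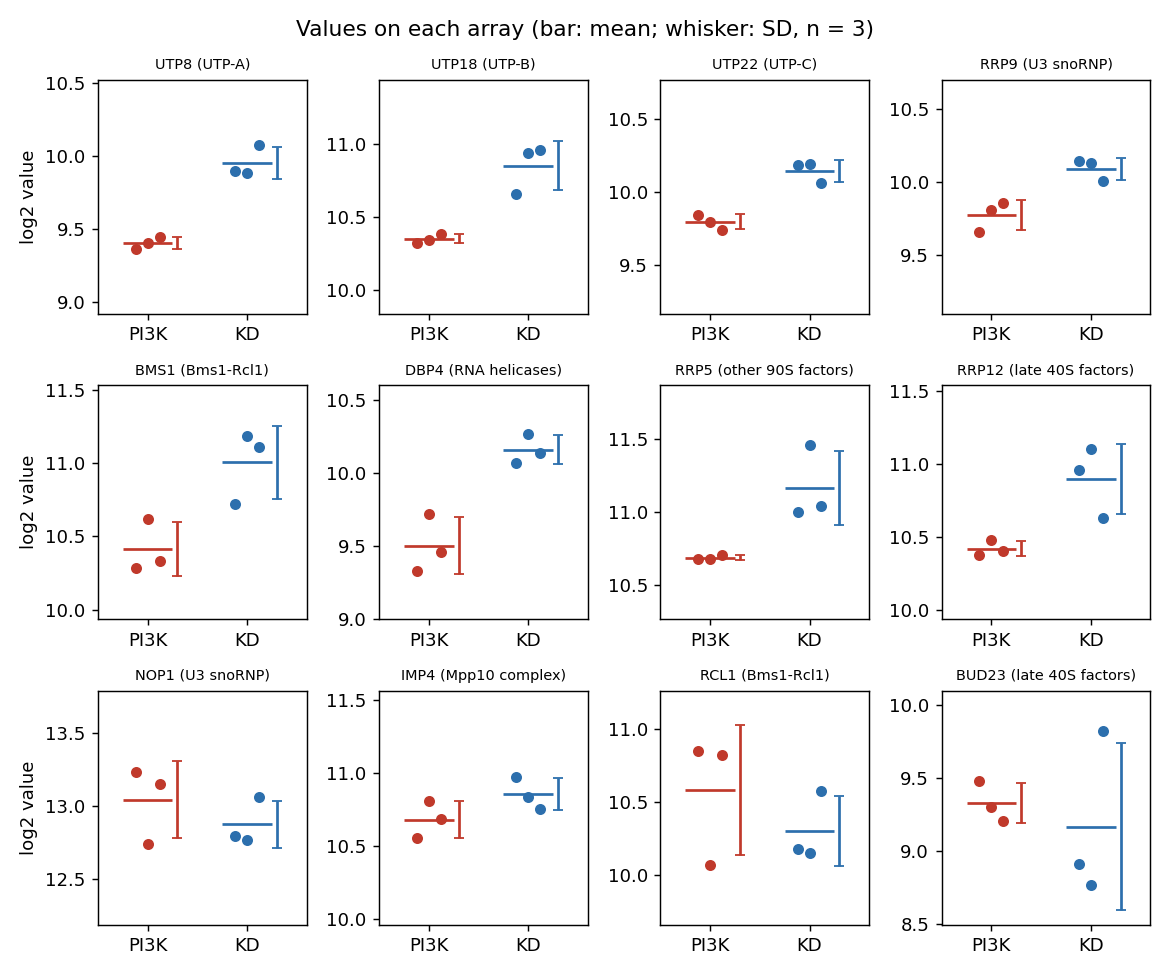
Log2 values on each array for 12 of the 53 genes, PI3K at left and KD at right in each panel, with a line at the mean and a whisker for the SD (n = 3); panels share a span of 1.6 log2 units but not a position. PI3K and KD points do not overlap for UTP8, UTP18, UTP22, RRP9, BMS1, DBP4, RRP5 and RRP12, and they overlap for NOP1, IMP4, RCL1 and BUD23.

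The other factors of the early particle, 17 genes, stood at a median of -0.34, with 16 lower and 6 with groups apart. BFR2, a factor that binds Enp2 in the particle, had 10.00, 9.99 and 10.18 in PI3K against 10.42, 10.38 and 10.45 in KD (log2 fold change -0.36, limma SE 0.11 and adjusted p = 0.223). RRP5, a large RNA-binding protein needed for both ribosomal subunits, had 10.67, 10.68 and 10.70 in PI3K against 11.00, 11.46 and 11.04 in KD. PI3K arrays differed little from each other and KD 2 was the highest array, for a log2 fold change of -0.48 (limma SE 0.15 and adjusted p = 0.225). UTP14, which activates the helicase Dhr1, had 10.73, 10.99 and 10.81 in PI3K against 11.07, 11.31 and 11.24 in KD, without overlap (log2 fold change -0.36, limma SE 0.12 and adjusted p = 0.254).

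UTP20, the longest gene of the set, stood at -0.48, UTP23 at -0.38 and NOC4 at -0.34, each with groups apart. Overlap was found for KRE33, the acetyltransferase of small-subunit RNA (-0.39), and for ENP2 (-0.39), NOP14 (-0.36), UTP11 (-0.33) and the KH-domain protein gene KRR1 (-0.27). Smaller differences, also with overlap, belonged to UTP7 (-0.24), FAF1 (-0.24), the methyltransferase gene EMG1 (-0.18), the nucleolin relative NSR1 (-0.18) and SOF1 (-0.08). LCP5 was the gene of this group that was higher in PI3K, with 10.98, 11.10 and 10.99 in PI3K against 10.60, 10.98 and 11.16 in KD. KD 1 was its lone low array, and the log2 fold change was 0.11 (limma SE 0.16 and adjusted p = 0.828).

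Late factors, which accompany the precursor out of the nucleus and carry out its last steps, had a median of -0.26 over 6 genes, 5 of them lower and 3 with groups apart. RRP12, a helical-repeat export factor, had 10.38, 10.48 and 10.41 in PI3K against 10.96, 11.10 and 10.63 in KD, for a log2 fold change of -0.48 (limma SE 0.14 and adjusted p = 0.223). NOB1, the endonuclease that makes the end of the mature RNA, had 10.64, 10.29 and 10.62 in PI3K against 10.78, 10.77 and 11.06 in KD. These did not overlap either (log2 fold change -0.35, limma SE 0.15 and adjusted p = 0.345). The dimethylase gene DIM1, at -0.16, had groups apart by 0.03.

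Of the remaining late factors, ENP1 and BUD23 had the largest SDs in KD among all late factors, 0.38 and 0.57. ENP1 had 9.67, 9.14 and 9.77 in PI3K against 9.71, 9.74 and 10.38 in KD (log2 fold change -0.42, SE 0.24), and PNO1, the KH-domain partner of Nob1, stood at -0.04. BUD23, a methyltransferase of a guanine in small-subunit RNA, had 9.48, 9.30 and 9.21 in PI3K against 8.91, 8.77 and 9.82 in KD. Opposite directions were present in BUD23, -0.48 within side A and 0.46 within side B, behind a log2 fold change of 0.16 (limma SE 0.27 and adjusted p = 0.861). In 13 of the 53 genes the sides had opposite signs, and 3 of the 5 U3 particle genes were among them (NOP1, NOP58 and SNU13).

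**Figure D4:**
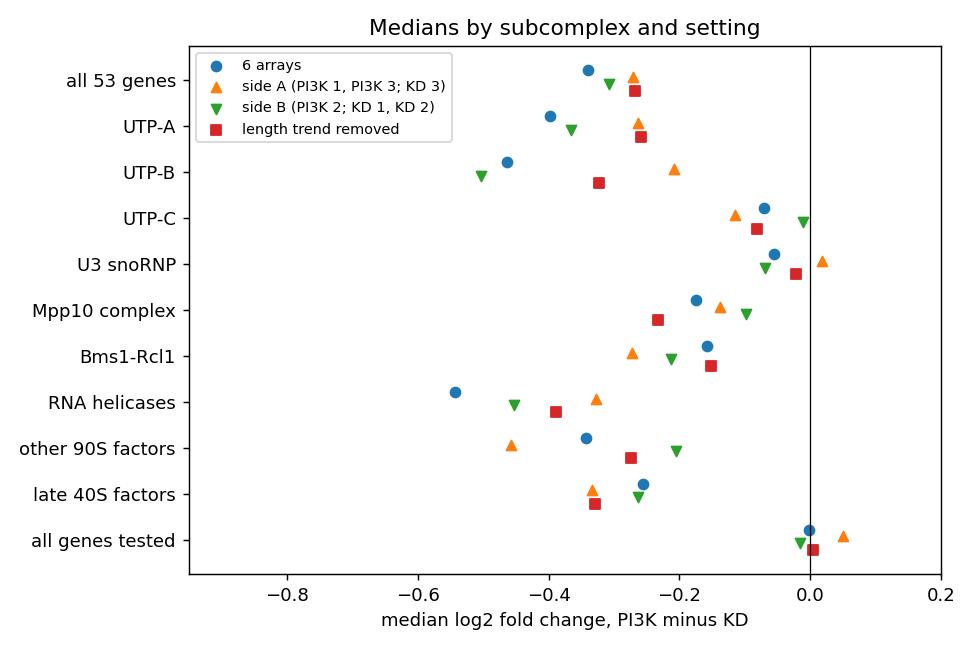
Median log2 fold change of PI3K minus KD for all 53 genes, for each subcomplex and for all genes tested, from the 6 arrays together, within side A, within side B and after removal of a length trend. Medians of the 53 genes lie between -0.34 and -0.27 in the 4 settings. RNA helicases lie at -0.54, -0.33, -0.45 and -0.39, and the U3 particle stays within 0.1 of 0.

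Gene length ran with the size of the difference. Across the 53 genes the log2 fold change had a Pearson correlation of -0.66 and a Spearman correlation of -0.73 with the logarithm of gene length, where all 5350 genes gave -0.20 and -0.29. The points share the same 6 arrays, so these coefficients are descriptions. All 20 genes of 2000 bases or more were lower, with a median of -0.48 and groups apart in 14. Among all tested genes of that length the median was -0.13, with 73.5% lower and 22.6% lower with groups apart. The 21 genes of 1000 to under 2000 bases had a median of -0.25 with 18 lower, against 0.02 and 47.7% over all genes of that length. The 12 genes under 1000 bases had a median of -0.13 with 9 lower, against 0.06 and 38.9% lower over all such genes.

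The 12 members under 1000 bases were NOP1, SNU13, IMP3, IMP4, RRP7, PNO1, BUD23, UTP23, UTP11, KRR1, EMG1 and DIM1. Of these, UTP23 (-0.38) and DIM1 (-0.16) had groups apart. Helicase, UTP-A and UTP-B genes had median lengths of 2208, 2142 and 2613 bases. The U3 particle and the Mpp10 complex had median lengths of 1515 and 873 bases, so subcomplex and length ran partly together over these genes. The other early factors, at a median length of 1605 bases, near that of the U3 particle, had a median log2 fold change of -0.34 against its -0.05. Levels differed as well, with medians of 10.55 for the other early factors and 12.96 for the 5 genes of the U3 particle. Over the 53 genes the log2 fold change had a Pearson correlation of 0.36 with mean level, against -0.07 over all genes tested. How much of the difference belongs to subcomplex, to length or to level was not tested. With a smooth trend of length removed from every array, the median over the 53 genes was -0.27 with 49 lower. It was then -0.26 for the genes under 1000 bases, -0.23 for those of 1000 to under 2000 and -0.32 for those of 2000 or more, while all genes of these lengths lay at -0.00, 0.00 and 0.01.

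**Figure D5:**
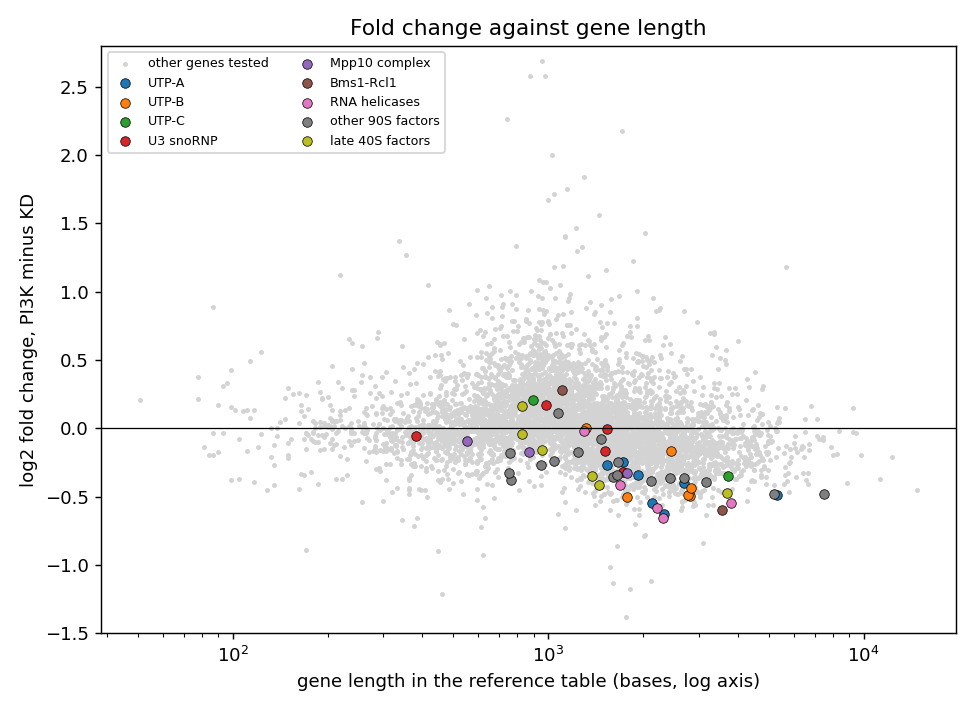
Log2 fold change of PI3K minus KD against gene length on a log axis, with the 53 genes coloured by subcomplex and all other tested genes in grey. The 20 coloured points at 2000 bases or more all lie below 0, and the 12 under 1000 bases lie between -0.38 and 0.21.

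The odd arrays of each group also followed length. KD 3 was the lowest KD array for 13 of the 20 longest members and the highest for 2, whereas it was the highest for 13 of the 21 of middle length and for 7 of the 12 shortest. Among all tested genes KD 3 was lowest for 69.5% of the longest and highest for 51.0% of those of middle length, but for those under 1000 bases it was lowest for 58.3% and highest for 29.4%. PI3K 2 was the highest PI3K array for 10 of the 12 shortest members and the lowest for 12 of the 21 of middle length, where all tested genes gave 72.9% and 60.9%. Their part in the differences between PI3K and KD was not tested beyond the values within sides above.

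Other genes of 40S assembly gave similar values. A list of 32 further 40S assembly genes had 29 lower, a median of -0.30 and 9 with all PI3K arrays under all KD arrays (28.1%, against 10.5% of all genes). None passed an adjusted p of 0.05, and 6 (18.75%) were lower at an unadjusted limma p under 0.05, against 6.58% of all genes. PRP43, a helicase of ribosome assembly and splicing, had the smallest p, with 11.30, 11.41 and 11.31 in PI3K against 11.72, 11.77 and 11.63 in KD (log2 fold change -0.37, limma SE 0.10 and adjusted p = 0.209). TSR3, an enzyme that modifies small-subunit RNA, had the smallest p among the 3 higher genes, at 0.16 (SE 0.14).

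Genes of the 60S subunit's assembly, 54 in number, had a median of -0.24 with 50 lower. Groups lay apart with PI3K lower in 22 of them (40.7%) and with PI3K higher in 2. IPI3, part of the complex that processes the second internal spacer, stood lowest at -0.64 (limma SE 0.12 and adjusted p = 0.119). TIF6 had the smallest p of the higher genes, at 0.24 (limma SE 0.11 and adjusted p = 0.387). The 17 genes of RNA polymerase I and its initiation factors had a median of -0.19 with 12 lower. Groups lay apart with PI3K lower in 4 of them (23.5%) and with PI3K higher in 1, where all genes gave 10.5% and 10.2%. RRN7 had the smallest p of the lower genes, at -0.47 (limma SE 0.14 and adjusted p = 0.223). RRN10, the gene with groups apart and PI3K higher, stood at 0.42 (limma SE 0.16 and adjusted p = 0.299), above any of the 53. The 128 cytosolic ribosomal protein genes had a median of -0.04 with 97 lower, at levels whose median was 13.76. Groups lay apart with PI3K lower in 2 of them (1.56%) and with PI3K higher in 4. Within side A 91 of the 128 were lower, but within side B only 36 were, and 21 were lower in both. Differences between these lists and the 53 genes were not tested.

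Regulators of the regulon were mixed. DOT6, a repressor that binds these promoters, had 10.65, 10.83 and 10.53 in PI3K against 11.16, 11.15 and 11.11 in KD, without overlap (log2 fold change -0.47, limma SE 0.12 and adjusted p = 0.176). SCH9 had 9.77, 9.38 and 9.59 in PI3K against 9.82, 10.05 and 10.15 in KD, again without overlap (log2 fold change -0.43, limma SE 0.15 and adjusted p = 0.269). The activator SFP1 stood at 0.26 (SE 0.19), the repressor TOD6 at -0.18 (SE 0.20) and STB3, a repressor that binds a second promoter element of the regulon, at -0.01 (SE 0.13), all with overlapping groups.

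On the chromosomes, 5 of the 53 genes lay next to a gene of the 60S list, and 0 next to another of the 53. UTP9 (-0.25) adjoins RIX1 (-0.45), NOC4 (-0.34) adjoins RRP15 (-0.25), UTP13 (-0.17) adjoins RSA3 (-0.01), DBP8 (-0.02) adjoins NMD3 (-0.04) and LCP5 (0.11) adjoins NSA2 (-0.06).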

How the data were processed

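Total RNA from 6 cultures was hybridised to 1-colour Affymetrix arrays, per the labels' protocols. The deposited log2 values are GCRMA summaries of 5716 probe sets, per the submitters' processing notes, which give no version. The log base is not stated and was taken from the range of values. Background and saturation at the scanner were not analysed here.

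Probe sets were named from the platform annotation and gene symbols updated by gene identifier to the R64 reference table: 5498 had 1 gene, 0 several and 218 none. A gene was kept where 3 or more arrays reached 4 on the log2 scale, with the highest-mean probe set for each gene. The fit of PI3K against KD used limma 3.58.1 (lmFit, eBayes, two-sided; R 4.3.3), adjusted by Benjamini-Hochberg over 5350 genes at 0.05, with 4 residual and 2.97 prior degrees of freedom. The script was tested on simulated data. Precision is limited by how few arrays there are.

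Whether replicate numbers pair the samples is not known, and no pairing was used in the main fit. Residuals of same-numbered arrays correlated at -0.49, 0.48 and 0.39. These cannot decide it, since most of the residual variance lies on the component that sets the sides apart. Length trends were removed by loess (span 0.5) on log gene length from the reference table, where 97.0% of lengths are multiples of 3. Alternatives were no filter, a filter at 6, median-centring, quantile normalisation, a replicate block, array weights, robust variances with a trend, mean of probe sets, array side, the length trend and leaving out each array. The genes, lists and settings were chosen with earlier results of these data known. Values on every array are given, for each subcomplex, for the members of smallest p and for the one with the highest log2 fold change; other members named with array values were chosen after their values were seen. Promoter sequences were not used here. Plots were made with Python 3.11.15 and matplotlib 3.10.9.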

Additional observations from a re-analysis of the deposited data

How the results depend on the processing

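The count of genes lower in PI3K stayed between 44 and 49 of 53 under every alternative run. The count with groups apart lay between 24 and 32, but most alternatives could not lower it. It is read from the values before any fit, so the replicate block, side covariate, array weights and robust variances leave it at 24 by construction. It was 24 with median-centring, 26 with quantile normalisation and 26 with the length trend removed. Over all genes these settings gave 530, 692 and 582, against 564 in the main fit. Leaving out an array can only raise the count with groups apart: without KD 3 it was 32, with 1290 of all genes. The median was -0.27 within side A and -0.27 with the length trend removed, and lay between -0.35 and -0.28 when single arrays were left out. Limma called 0 of the 53 genes except with array weights (39 of the 53, and 2808 of all genes, a fit whose weights did not fully converge) and with side as a covariate (5 of the 53, UTP8, DBP4, KRE33, ENP1 and NOB1, and 185 of all genes). That side was found from the same values, so its p-values are too small by an unknown amount.

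Over all genes limma called 40 with the replicate block and 34 with the length trend removed. It called 0 to 6 when single arrays were left out, the 0 without KD 2, with 476 genes then under an unadjusted p of 0.05. The block changed no call among the 53 genes. Of the 25 genes whose fold changes were followed singly, 5 near 0 changed sign; signs of the other members were not followed beyond the counts above. UTP6 was at -0.028 with quantile normalisation, -0.067 with the side covariate, -0.028 with the length trend removed and between -0.077 and 0.129 without single arrays. BUD23 was at -0.0084 with the side covariate and between -0.036 and 0.490 without single arrays. DBP8 was at 0.22 with array weights and between -0.092 and 0.118 without single arrays. With the length trend removed NOP1 was at -0.0047 and LCP5 at -0.040, and LCP5 lay between -0.045 and 0.237 without single arrays. The causes were not tested.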
